A study of Rattus norvegicus with 4 samples.

Results

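Kupffer cells are the resident macrophages of the liver. The genes described here are 10 transcripts by which such cells are recognised or that serve their uptake of particles, proteins and dying cells: Clec4f, Vsig4, Siglec1, Folr2, Cd163, Marco, Cd5l, Fcna, Mmp12 and Spic. They were taken by symbol from the 22118 symbols (22250 features) of the deposited matrices, and all 10 were found. Their levels were read in macrophage barcodes, which are barcodes with at least 2 UMIs (unique molecular identifiers, each standing for 1 captured transcript) of C1qa, a complement chain made by macrophages. The genes were chosen with their levels in these same libraries known, so the levels and ratios below are descriptions and carry no test.

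Livers of Lewis rats gave 4 single-cell libraries, 1 per condition. NEVLPcty is a liver perfused for 4 h at 37 °C with IL-10 and TGF-β added, NEVLP2 a liver perfused for 4 h at 37 °C without them, CS a liver kept for 4 h at 4 °C, and naive an untreated liver. What CS and NEVLPcty stand for was taken from the series description, since the sample labels give the short names alone, and the 2 in NEVLP2 is unexplained there. The labels list William's E medium, human albumin, antibiotics, heparin, papaverine, insulin, hydrocortisone and packed Lewis red cells in the perfusate, and the sources used here give neither the cell isolation nor the age, sex or number of animals per library. With 1 library a condition, the treatment, the animal and the preparation cannot be told apart, and every interval below is a 95% interval for counting error only.

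In the healthy liver, Kupffer cells line the sinusoids and take up bacteria, complement-coated particles and worn red cells from the blood. Lectins and scavenger receptors on their surface bind these loads, secreted proteins tag them, and iron from the red cells is passed on. Their identity genes are known to be lost when the cells leave the liver environment, and monocyte-derived macrophages that enter the liver gain them only gradually.

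The sequences upstream of 4 of these genes are shown because they share a motif. RefSeq promoter windows (GRCr8) matched 9 of the 10 genes, all but Siglec1. The windows searched held the 250 bases before each annotated start, on both strands. The letters GGAAGT, the core bound by ETS factors such as the myeloid factor PU.1 and Spi-C, lay in 4 of the 9 windows, against 19.2% of 33469 rat windows of the same length. Clec4f (chr4:117696408-117696657, minus strand) and Folr2 (chr1:165630383-165630632, minus strand) each held it in 2 places, and Fcna (chr3:28847238-28847487, minus strand) and Spic (chr7:24964901-24965150, minus strand) in 1. In the windows below, given 5′ to 3′ along the gene, capitals mark that motif, which in Spic reads ACTTCC because the match is on the opposite strand.
Clec4f: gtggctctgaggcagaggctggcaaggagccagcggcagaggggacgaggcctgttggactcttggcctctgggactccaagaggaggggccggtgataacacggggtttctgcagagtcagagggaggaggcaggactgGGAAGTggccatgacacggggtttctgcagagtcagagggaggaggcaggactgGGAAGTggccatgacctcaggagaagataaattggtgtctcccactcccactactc
Folr2: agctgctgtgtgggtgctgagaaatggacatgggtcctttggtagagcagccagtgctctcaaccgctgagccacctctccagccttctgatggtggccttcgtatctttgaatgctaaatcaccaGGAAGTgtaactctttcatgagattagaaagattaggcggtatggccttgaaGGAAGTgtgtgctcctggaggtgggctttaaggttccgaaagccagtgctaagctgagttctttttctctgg
Fcna: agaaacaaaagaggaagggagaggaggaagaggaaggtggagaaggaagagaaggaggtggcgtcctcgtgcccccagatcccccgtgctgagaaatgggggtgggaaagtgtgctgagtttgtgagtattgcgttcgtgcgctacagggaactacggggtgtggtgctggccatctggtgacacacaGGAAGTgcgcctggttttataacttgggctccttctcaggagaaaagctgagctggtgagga
Spic: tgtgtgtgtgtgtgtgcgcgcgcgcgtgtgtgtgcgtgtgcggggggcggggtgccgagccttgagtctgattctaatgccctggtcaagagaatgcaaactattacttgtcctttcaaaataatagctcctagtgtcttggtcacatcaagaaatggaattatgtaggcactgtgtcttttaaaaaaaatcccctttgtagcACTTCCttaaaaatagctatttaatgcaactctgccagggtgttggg
The matches began 110 and 56 bases before the start in Clec4f, within 2 copies of a direct repeat, 124 and 72 in Folr2, 62 in Fcna and 47 in Spic. The 4 genes did not share a pattern of levels, since Clec4f, Fcna and Folr2 were highest in CS and Spic in both perfused livers.

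Of the 9 windows, only that of Mmp12 (chr8:12866402-12866651, plus strand) held TGANTCA, the sequence bound by AP-1 factors. Spic, which like Mmp12 was higher in both perfused livers than in CS, had no match to it. That motif was found in 6.34% of all windows and began 87 bases before the Mmp12 start, where capitals mark it.
Mmp12: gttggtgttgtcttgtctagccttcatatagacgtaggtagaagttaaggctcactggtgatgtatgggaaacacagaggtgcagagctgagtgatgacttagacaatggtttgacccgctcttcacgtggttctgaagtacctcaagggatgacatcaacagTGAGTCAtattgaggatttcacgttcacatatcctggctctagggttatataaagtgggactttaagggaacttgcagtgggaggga
A match of letters is not a bound site, and no binding was measured here.

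Filtering left 11616 of 11763 barcodes in NEVLPcty, 10186 of 10646 in NEVLP2, 10798 of 11200 in CS and 3300 of 3920 in naive. The macrophage barcodes among them numbered 909, 1484, 2205 and 201 in the same order (7.83, 14.6, 20.4 and 6.09% of those retained). They held 9674933 UMIs in NEVLPcty, 16674865 in NEVLP2, 24309521 in CS and 2709125 in naive, and their median depths were 8385, 8150, 9149 and 12336 UMIs. A count of 0 in such a total allows a level of up to 0.31 CPM (counts per 1000000 UMIs; 3 counts) in NEVLPcty, 0.18 in NEVLP2, 0.123 in CS and 1.11 in naive. Counting intervals of the members' levels reached at most ±11.3% of the level in NEVLPcty, ±7.61% in NEVLP2, ±5.99% in CS and ±22.2% in naive. Pairs of libraries shared 11 to 35 deposited barcode sequences, and among macrophage barcodes only NEVLP2 and CS shared any, 2.

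The rule on C1qa gathered barcodes of unlike content. C1qb, made by the same cells as C1qa, was found in 71.3% of them in NEVLPcty, 72.4% in NEVLP2, 75.9% in CS and 89.6% in naive. C1qa made up under 0.5 per 1000 UMIs in 32.9% of them in NEVLPcty, 21.5% in NEVLP2, 23.3% in CS and 10.4% in naive. In these poor barcodes, 7 of 8 listed endothelial markers took 0.423% of UMIs in NEVLPcty, 0.0985% in NEVLP2, 0.339% in CS and 0.00686% in naive. Barcodes with 2 or more C1qa UMIs per 1000, called C1qa-rich below, numbered 506, 866, 1359 and 168 in NEVLPcty, NEVLP2, CS and naive (55.7, 58.4, 61.6 and 83.6%). There the endothelial markers took 0.0418, 0.0201, 0.044 and 0.0156% of UMIs and 7 of 8 listed macrophage markers, C1qa among them, 2.85, 2.84, 5.03 and 3.44%. At the limit itself, with exactly 1 C1qa UMI, which left a barcode out, Clec4f was found in 12.4% of NEVLPcty, 13.3% of NEVLP2, 21.4% of CS and 1.18% of naive barcodes, and with exactly 2, which let it in, in 17.2, 15, 23.9 and 18.2%. The naive barcodes on the 2 sides of the limit differed most, with 170 at 1 C1qa UMI and 22 at 2. The members are therefore given both in all macrophage barcodes and in the C1qa-rich ones.

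**Figure D1:**
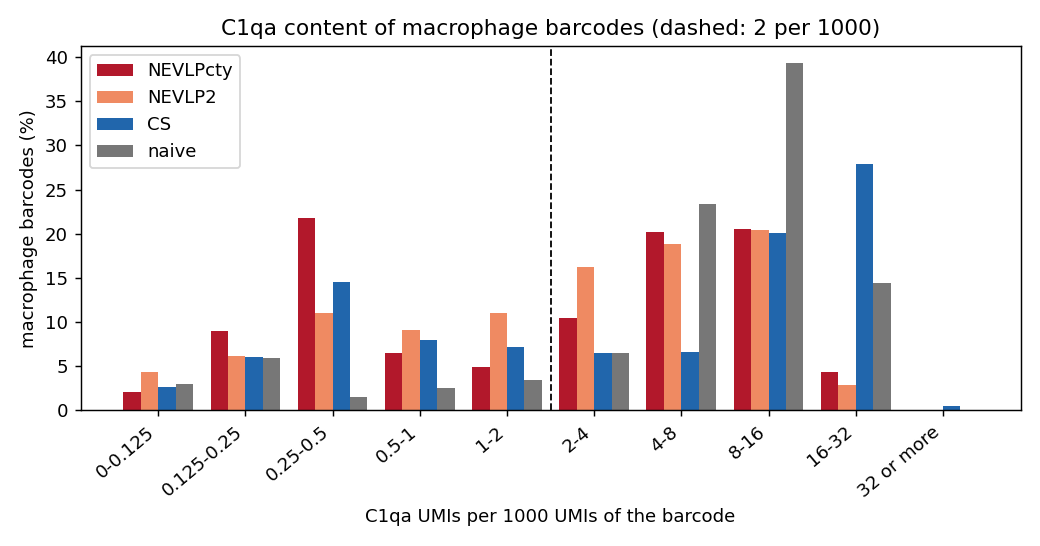
Share of each library's macrophage barcodes (vertical axis, %) by C1qa UMIs per 1000 UMIs of the barcode (horizontal axis, classes doubling in width), for NEVLPcty, NEVLP2, CS and naive. Classes from 16 to 32 per 1000 hold 4.4% of barcodes in NEVLPcty, 2.9% in NEVLP2, 27.9% in CS and 14.4% in naive, and those right of the dashed line, at 2 per 1000 or more, make up 55.7, 58.4, 61.6 and 83.6%.

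Clec4f, Vsig4 and Siglec1, surface lectins and receptors that define the resident cell, were all lower in both perfused livers than in CS. Clec4f encodes a C-type lectin used in rodents as a marker of Kupffer cells. It stood at 1713 CPM in NEVLPcty, 2187 in NEVLP2, 5608 in CS and 2572 in naive. NEVLPcty was 3.27-fold lower than CS (3.22 to 3.33) and NEVLP2 2.56-fold lower (2.53 to 2.59). CS stood apart from the other libraries, at 2.18-fold above naive (2.13 to 2.23), so the naive level lay between CS and the perfused livers. That place of naive did not hold under all settings. NEVLPcty was 1.16-fold above naive without barcodes that also held endothelial or lymphocyte markers or many hepatocyte transcripts. NEVLP2 was 1.31-fold above naive without the 10 barcodes richest in Clec4f of each library.

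Vsig4, the complement receptor that binds C3 fragments on particles in the blood, showed the largest gap of the 10 genes between NEVLPcty and CS. Its level was 268 CPM in NEVLPcty, 511 in NEVLP2, 1653 in CS and 593 in naive. NEVLPcty was 6.18-fold lower than CS (5.94 to 6.43) and NEVLP2 3.23-fold lower (3.16 to 3.31). The perfused livers also differed from each other, NEVLPcty being 1.91-fold below NEVLP2 (1.83 to 2.0).

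Siglec1, a lectin that binds sialic acid on other cells, was the least abundant of these surface genes in counts, with 312, 677, 3942 and 270 UMIs in NEVLPcty, NEVLP2, CS and naive. That gave 32.2 CPM in NEVLPcty, 40.6 in NEVLP2, 162 in CS and 99.7 in naive. It was 5.03-fold lower in NEVLPcty than in CS (4.48 to 5.66) and 3.99-fold lower in NEVLP2 (3.68 to 4.34). It was also below naive in both perfused livers, 3.09-fold in NEVLPcty (2.62 to 3.65) and 2.45-fold in NEVLP2 (2.12 to 2.83). Clec4f was 1.5-fold (1.46 to 1.54) and 1.18-fold (1.15 to 1.21) below naive in the same barcodes, but its direction turned under other settings.

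**Figure D2:**
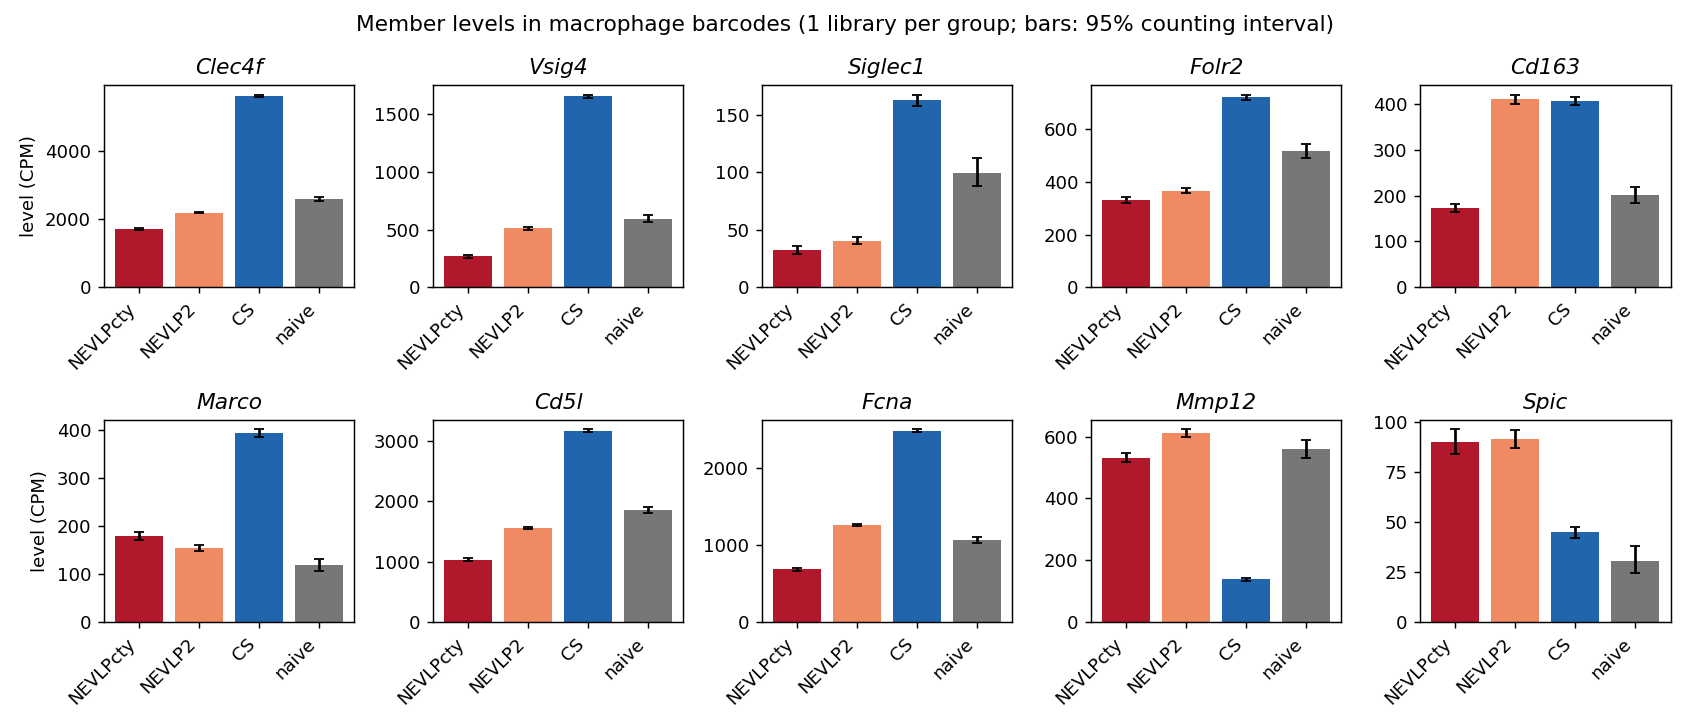
Level of each gene in macrophage barcodes (CPM, vertical axes from 0, a scale per gene) in NEVLPcty, NEVLP2, CS and naive, with 95% counting intervals. CS has the tallest bar for 7 genes, such as Vsig4 at 1653 CPM, is level with NEVLP2 for Cd163, and has the shortest bar for Mmp12 at 138 CPM.

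Of the remaining surface receptors, Folr2 had the same order of levels over the libraries as Clec4f and Siglec1, with smaller differences from CS. Cd163 and Marco each followed a course of its own. Folr2, the folate receptor beta found on resident macrophages of many tissues, had 330 CPM in NEVLPcty, 367 in NEVLP2, 720 in CS and 516 in naive. Its differences were among the smallest, 2.18-fold lower than CS in NEVLPcty (2.1 to 2.27) and 1.96-fold lower in NEVLP2 (1.91 to 2.02).

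Cd163 encodes the receptor for haemoglobin bound to haptoglobin, and in human monocytes it is known to respond to IL-10 and glucocorticoids. It reached 172 CPM in NEVLPcty, 410 in NEVLP2, 406 in CS and 201 in naive. NEVLP2 and CS could not be told apart by counting error, at a ratio of 1.01 (0.98 to 1.04). NEVLPcty was 2.36-fold lower than CS (2.24 to 2.49) and 2.38-fold lower than NEVLP2 (2.26 to 2.52). NEVLP2 and CS were thus the higher libraries, and NEVLPcty and naive the lower ones. Without mixed barcodes, meaning those that also held endothelial or lymphocyte markers or many hepatocyte transcripts, NEVLPcty was 1.28-fold below CS and the log2 ratio of CS over naive was 0.09, so this grouping did not hold there. Over all macrophage barcodes, Cd163 was the only member past 2-fold between the perfused livers. Of all genes, 9.26% were at least 2-fold lower in NEVLPcty there and 14% at least 2-fold higher. Without mixed barcodes the log2 ratio of Cd163 was -0.67, and Marco was 4.43-fold higher in NEVLPcty. Without the 10 barcodes richest in each gene, Vsig4 and Fcna were also past 2-fold, at 2.23-fold and 2.02-fold lower in NEVLPcty, and Marco was 3.66-fold higher.

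Marco, a scavenger receptor with a collagen-like stalk that binds bacteria, differed from the rest in how few barcodes held it. Its level was 180 CPM in NEVLPcty, 154 in NEVLP2, 394 in CS and 118 in naive. The 10 barcodes with most Marco held 70.8% of its UMIs in NEVLPcty, 90.7% in NEVLP2, 62.5% in CS and 100% in naive, whereas for Clec4f they held 13.8, 7.01, 3.1 and 44.8%. A single NEVLP2 barcode carried 1015 of 2567 Marco UMIs. The NEVLPcty level was 2.19-fold below CS (2.08 to 2.30), but the mean over barcodes, which gives each barcode the same weight, was higher in NEVLPcty by 1.11 on the log2 scale, and the level after thinning to 2000 UMIs was higher by 1.02. No direction is therefore drawn for Marco.

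Cd5l and Fcna are secreted. Cd5l, a protein of the scavenger receptor cysteine-rich family that circulates with IgM and is a target of the liver X receptor in mouse macrophages, had 1035 CPM in NEVLPcty, 1558 in NEVLP2, 3166 in CS and 1854 in naive. It was 3.06-fold lower in NEVLPcty than in CS (3.0 to 3.12) and 2.03-fold lower in NEVLP2 (2.0 to 2.06). Fcna, ficolin A of the lectin pathway of complement, had 687 CPM in NEVLPcty, 1261 in NEVLP2, 2487 in CS and 1073 in naive. It was 3.62-fold lower in NEVLPcty than in CS (3.53 to 3.72) and 1.97-fold lower in NEVLP2 (1.94 to 2.0). For both genes NEVLPcty was the lowest of the 4 libraries and CS the highest, and NEVLP2 lay within 1.19-fold of naive (1.15 to 1.23) for Cd5l and 1.18-fold (1.13 to 1.22) for Fcna. Without mixed barcodes the order of the perfused livers turned for Cd5l, with a log2 ratio of NEVLPcty over NEVLP2 of 0.11.

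Mmp12 and Spic ran the other way. Mmp12, the macrophage elastase that cleaves elastin and other matrix proteins, had 531 CPM in NEVLPcty, 611 in NEVLP2, 138 in CS and 560 in naive. It was 3.85-fold higher in NEVLPcty than in CS (3.69 to 4.02) and 4.44-fold higher in NEVLP2 (4.27 to 4.62). NEVLPcty was 0.948 of naive (0.895 to 1.00) and NEVLP2 1.09 of naive (1.04 to 1.15), and CS was 4.06-fold below naive (3.82 to 4.32). The naive level rests on few barcodes, of which the 10 richest held 65.5% of its Mmp12 UMIs. Without the 10 barcodes richest in Mmp12 of each library, CS was 1.98-fold below naive, and NEVLPcty and NEVLP2 were 1.95-fold and 2.30-fold above it, while their ratios over CS were 3.88-fold and 4.57-fold.

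Spic encodes Spi-C, an ETS transcription factor that red pulp macrophages of the mouse spleen need and that haem is known to induce there. It had 89.9 CPM in NEVLPcty, 91.2 in NEVLP2, 44.7 in CS and 30.6 in naive. The perfused livers could not be told apart, at a ratio of 0.986 (0.906 to 1.07), and they stood 2.01-fold (1.84 to 2.20, NEVLPcty) and 2.04-fold (1.89 to 2.21, NEVLP2) above CS. Over all macrophage barcodes, Spic was the only member higher in both perfused livers than in both CS and naive. It stood at 2.94-fold (2.34 to 3.72, NEVLPcty) and 2.98-fold (2.39 to 3.76, NEVLP2) over naive. Mmp12 was higher than both as well without mixed barcodes, at 1.46-fold (NEVLPcty) and 1.49-fold (NEVLP2) over naive, and without its 10 richest barcodes. The naive Spic value rests on 83 UMIs. Without the 10 barcodes richest in Spic, its log2 ratios over CS were 0.84 in NEVLPcty and 0.87 in NEVLP2, short of 2-fold.

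Counted together, 8 of the 10 members were at least 2-fold lower in NEVLPcty than in CS, beside 30.3% of the 12738 genes with at least 10 counts, and 2 were at least 2-fold higher, beside 8.82%. The median log2 ratio was -1.43 over the members and -0.43 over all genes. In NEVLP2 over CS, 5 members were at least 2-fold lower, beside 37.8% of 12887 genes, and 2 were higher, beside 8.7%, with medians of -1.0 and -0.63. Both counts of lower members include Marco, for which no direction is drawn. Since the members were chosen on this contrast, nothing is read from these shares. Dividing each ratio by the median over all genes left 5 members at least 2-fold lower in NEVLPcty and 2 in NEVLP2. Without mixed barcodes, 2 members were at least 2-fold lower in NEVLPcty, beside 31.2% of genes, and 3 in NEVLP2, beside 32.8%. At least 2-fold higher were 3 in NEVLPcty (Marco, Mmp12 and Spic), beside 5.8%, and 2 in NEVLP2 (Marco and Mmp12), beside 9.25%.

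That setting kept 311 macrophage barcodes in NEVLPcty, 653 in NEVLP2, 426 in CS and 115 in naive, and it made most distances from CS smaller. In NEVLPcty, Siglec1 was then 3.26-fold, Vsig4 2.86-fold, Fcna 1.77-fold, Clec4f 1.57-fold, Folr2 1.38-fold and Cd5l 1.36-fold below CS, and Mmp12 2.20-fold and Spic 2.26-fold above it. In NEVLP2, Siglec1 was 3.56-fold, Vsig4 2.46-fold, Clec4f 2.08-fold, Folr2 1.88-fold, Fcna 1.49-fold and Cd5l 1.47-fold below CS, and Mmp12 2.24-fold and Spic 1.88-fold above it. Vsig4 and Siglec1 thus stayed at least 2-fold lower, and Mmp12 at least 2-fold higher, in both perfused livers. NEVLPcty was no longer the lower of the perfused livers for Clec4f, Siglec1 and Folr2, with log2 ratios over NEVLP2 of 0.41, 0.13 and 0.45.

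Against naive, 5 members were at least 2-fold higher in CS (Clec4f, Vsig4, Fcna, Cd163 and Marco, whose direction turned under other settings), beside 15.6% of genes, and Mmp12 alone was lower, beside 6.11%. Without mixed barcodes none was at least 2-fold higher in CS, beside 9.53%, and Marco was the 1 lower, beside 4.13%, so this count rests on the choice of barcodes. In NEVLP2 over naive, Cd163 and Spic were at least 2-fold higher, beside 16.1%, and Siglec1 was lower, beside 25.9%. In NEVLPcty over naive, Spic was higher, beside 17.9%, and Vsig4 and Siglec1 were lower, beside 21.8%. Without mixed barcodes, Vsig4 in NEVLPcty was 1.61-fold below naive and the log2 ratio of Cd163 in NEVLP2 over naive was 0.41, both short of 2-fold. Spic and Siglec1 stayed past 2-fold from naive there in both perfused livers. These comparisons share libraries with those over CS, and a distance of the perfused livers from CS is in part the distance of CS from naive. The naive values come from 201 barcodes, in which the 10 richest held 44.8% of Clec4f and 58% of Vsig4 UMIs.

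**Figure D3:**
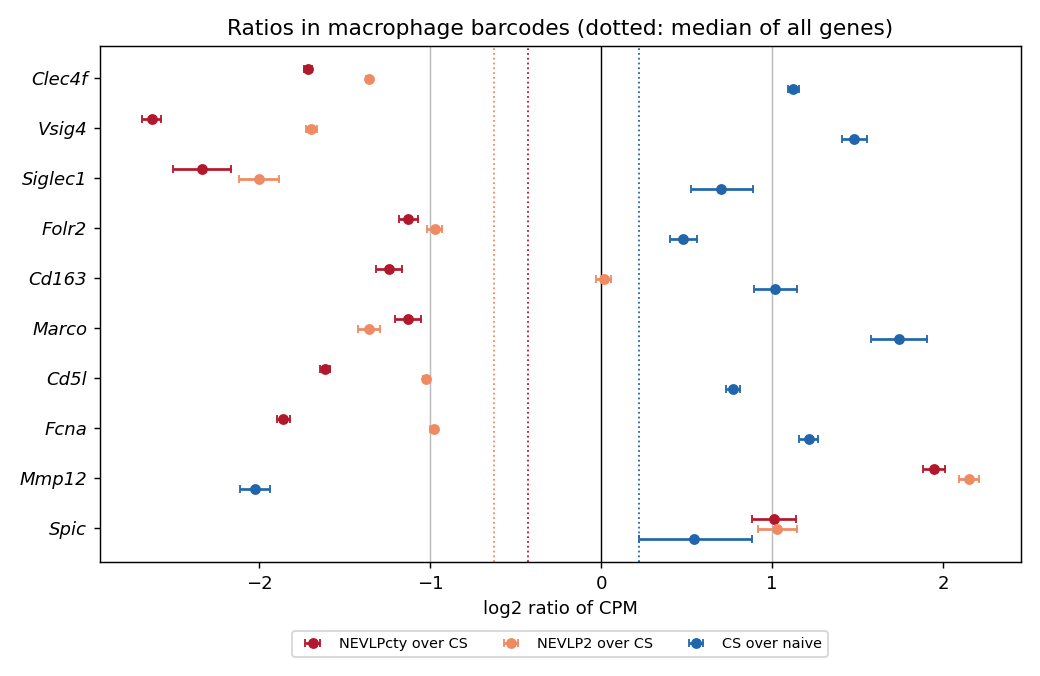
Log2 ratio of CPM in macrophage barcodes (horizontal axis) for NEVLPcty over CS, NEVLP2 over CS and CS over naive, with 95% counting intervals; dotted lines mark the median over all genes and grey lines 2-fold. Clec4f, Vsig4, Siglec1, Cd5l and Fcna lie left of the dotted lines for both perfused livers, Mmp12 and Spic lie right of them, and Cd163 in NEVLP2 sits at 0.02.

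After thinning each barcode to 2000 UMIs, the share of barcodes with a transcript was highest in CS for Clec4f, Vsig4, Siglec1, Cd5l and Cd163, in naive for Folr2, Fcna and Mmp12, in NEVLP2 for Spic and in NEVLPcty for Marco. Thinning left 809, 1187, 1889 and 144 macrophage barcodes in NEVLPcty, NEVLP2, CS and naive, and Clec4f was found in 39.9, 46.6, 57.9 and 45.1% (unthinned 52, 52.8, 63.6 and 60.7%). In hepatocyte barcodes, which should lack it, the thinned shares were 1.22, 7, 11.8 and 0.58% (unthinned 2.45, 11, 15.6 and 0.928%). Before thinning, the median depth of hepatocyte barcodes was 1729, 1480, 1571 and 1869 UMIs. The background share was thus highest in CS.

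Siglec1 was found in 3.96% of thinned macrophage barcodes in NEVLPcty, 6.32% in NEVLP2, 20.3% in CS and 18.1% in naive (unthinned 16.2, 21.2, 42.4 and 34.8%), and in at most 0.369% of thinned hepatocyte barcodes. Both perfused livers were therefore below CS and naive, whose shares overlap within the interval of the naive value (12.1 to 25.3%). Mmp12 was found in 19.7% in NEVLPcty, 19.7% in NEVLP2, 8.52% in CS and 24.3% in naive (unthinned 27.3, 22.8, 11.1 and 25.9%), against at most 1.4% of thinned hepatocyte barcodes. Folr2 was found in 31.8% in NEVLPcty, 33.4% in NEVLP2, 48.7% in CS and 59% in naive (unthinned 50.6, 48, 56.5 and 65.7%), so that naive, not CS, had the largest share; hepatocyte barcodes held it in at most 2.21%.

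Spic was found in 9.52% in NEVLPcty, 11.8% in NEVLP2, 6.93% in CS and 7.64% in naive (unthinned 25.2, 27.8, 24.2 and 19.4%), against at most 0.382% of thinned hepatocyte barcodes. The Spic shares therefore differed less between libraries than its levels did. Cd163 was found in 13.6% in NEVLPcty, 28% in NEVLP2, 31.3% in CS and 23.6% in naive (unthinned 22.6, 34.1, 41 and 28.9%), with NEVLPcty the lowest; hepatocyte barcodes held it in at most 1.78%.

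Vsig4 was found in 16.7% of thinned macrophage barcodes in NEVLPcty, 27% in NEVLP2, 41.8% in CS and 20.1% in naive (unthinned 23.1, 31.5, 44.4 and 23.9%), against at most 6.09% of thinned hepatocyte barcodes. Cd5l was found in 31.9% in NEVLPcty, 46.7% in NEVLP2, 52.5% in CS and 44.4% in naive (unthinned 43.2, 51.1, 58.2 and 56.7%), against at most 6.23%. Fcna was found in 32.3% in NEVLPcty, 45.4% in NEVLP2, 54.4% in CS and 54.9% in naive (unthinned 53.6, 56.8, 61.5 and 82.1%), against at most 4.96%. The thinned Fcna shares of CS and naive thus lay close to each other, although its level was 2.32-fold higher in CS. Marco was found in 5.81% in NEVLPcty, 2.78% in NEVLP2, 4.18% in CS and 2.08% in naive (unthinned 12.3, 6.6, 6.76 and 4.98%), against at most 0.813% of thinned hepatocyte barcodes.

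**Figure D4:**
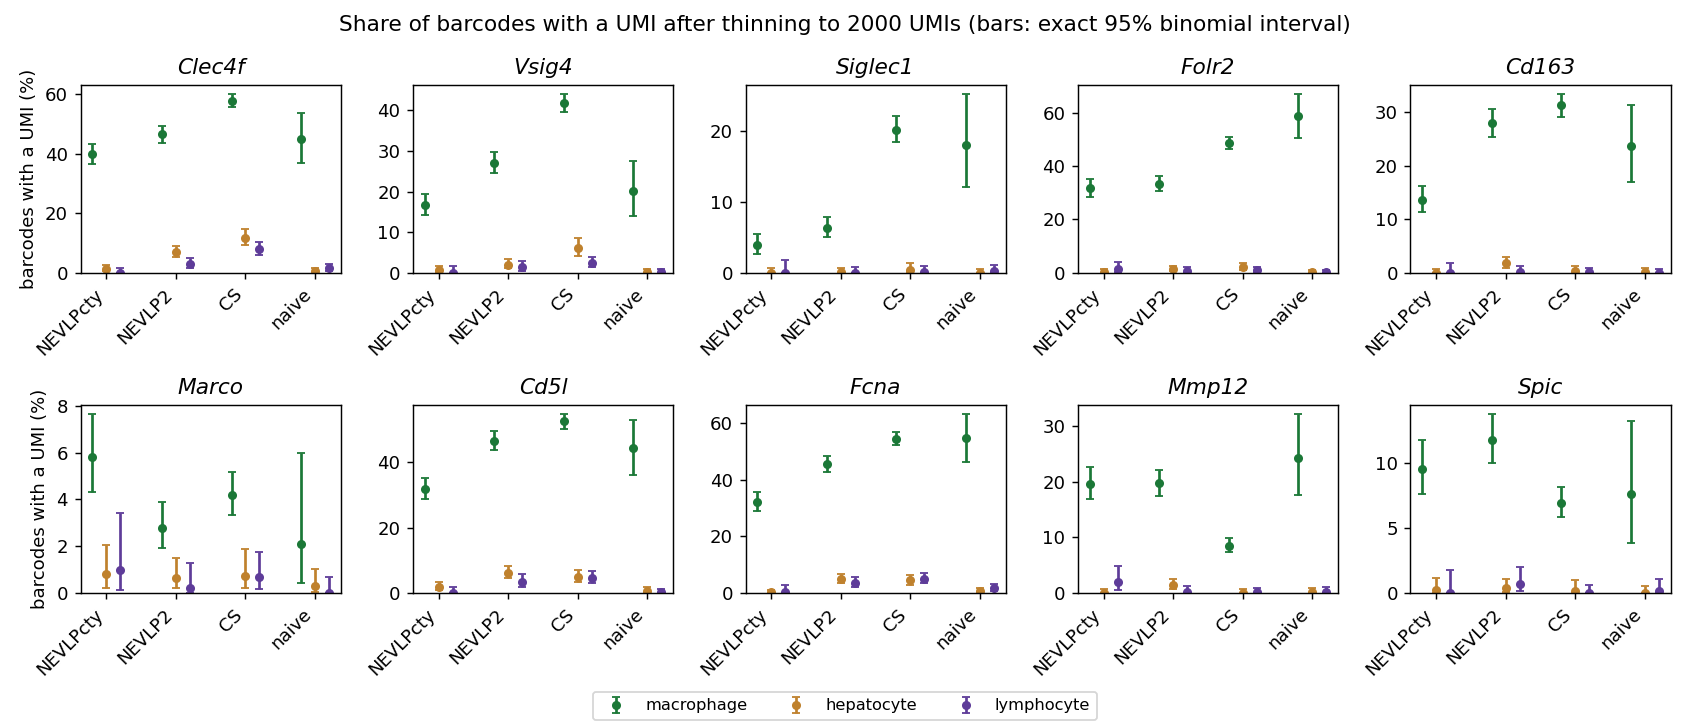
Percent of macrophage, hepatocyte and lymphocyte barcodes with a UMI of each gene after thinning to 2000 UMIs, in NEVLPcty, NEVLP2, CS and naive, with exact 95% binomial intervals (vertical axes from 0, a scale per gene). The intervals of macrophage barcodes lie above those of both other kinds for every gene and library except Marco in naive, and the Clec4f background is highest in CS, at 11.8% of hepatocyte barcodes.

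Of the Clec4f UMIs in all retained barcodes, 94.2% in NEVLPcty, 96.7% in NEVLP2, 98.5% in CS and 99.2% in naive lay in macrophage barcodes. For Spic the shares were 84% in NEVLPcty, 69.3% in NEVLP2, 95.9% in CS and 76.1% in naive, and for Mmp12 they were 82% in NEVLPcty, 75.4% in NEVLP2, 93.6% in CS and 89.4% in naive. Marco in NEVLPcty, at 71.3%, and Fcna in naive, at 80.8%, were also spread more widely, and CS was at or above 93.6% for each of the 10 genes.

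Among C1qa-rich barcodes, a split by the presence of a Clec4f UMI gave sets of barcodes that differed in the members' levels. The limit to C1qa-rich barcodes was added after the levels had been seen. Barcodes with Clec4f made up 75.1% of C1qa-rich barcodes in NEVLPcty (71.1 to 78.8%), 76.2% in NEVLP2 (73.2 to 79.0%), 85.0% in CS (83 to 86.8%) and 71.4% in naive (64.0 to 78.1%). Those without it numbered 126, 206, 204 and 48, with median depths of 13113, 1272, 3093 and 10836.5 UMIs, against 12303.5, 15574.5, 15250 and 11146.5 UMIs with it. Ratios between the sets were therefore taken after thinning. The split was then made anew on the thinned counts, so barcodes that lost their Clec4f UMIs moved to the set without it. It gave 280, 513, 986 and 65 barcodes with Clec4f and 141, 165, 161 and 48 without it, so thinned and unthinned sets do not hold the same barcodes.

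Vsig4 stood at 537 CPM in NEVLPcty, 881 in NEVLP2, 2458 in CS and 1104 in naive in barcodes with Clec4f, and at 3.97, 11.9, 12.7 and 5.46 CPM in those without it (unthinned). Cd163 stood at 351, 698, 601 and 331 CPM with Clec4f, and at 5.3, 22.2, 12.7 and 117 CPM without it, in the same order of libraries. After thinning, Cd5l was 17.4-fold higher in barcodes with Clec4f in NEVLPcty (12.7 to 24.6), 6.30-fold in NEVLP2 (5.34 to 7.49), 22.2-fold in CS (17.4 to 28.7) and 13.7-fold in naive (9.36 to 20.8). Vsig4, Cd163 and Cd5l thus lay mainly in the barcodes that also held Clec4f, in each of the 4 libraries. Folr2 was shared more evenly, at 3.25-fold in NEVLPcty (2.48 to 4.32), 2.36-fold in NEVLP2 (1.87 to 3.02), 2.44-fold in CS (2.05 to 2.92) and 1.44-fold in naive (1.04 to 2.01).

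Mmp12 had its higher level on the other side of the split, but barcodes with Clec4f held it too. Thinned barcodes without Clec4f held 1174 CPM in NEVLPcty, 1833 in NEVLP2, 764 in CS and 1135 in naive (unthinned 1191, 1492, 827 and 882). Those with Clec4f held 466 CPM in NEVLPcty, 453 in NEVLP2, 134 in CS and 431 in naive (unthinned 545, 563, 122 and 646). It was 2.52-fold higher without Clec4f in NEVLPcty (2.13 to 2.97), 4.05-fold in NEVLP2 (3.58 to 4.57), 5.69-fold in CS (4.76 to 6.79) and 2.64-fold in naive (1.89 to 3.71). The same barcodes without Clec4f were also richer in Cd74, the chaperone of MHC class II, at 33344 CPM in NEVLPcty, 24618 in NEVLP2, 34162 in CS and 28313 in naive, against 16730, 9618, 8067 and 18331 CPM with Clec4f.

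**Figure D5:**
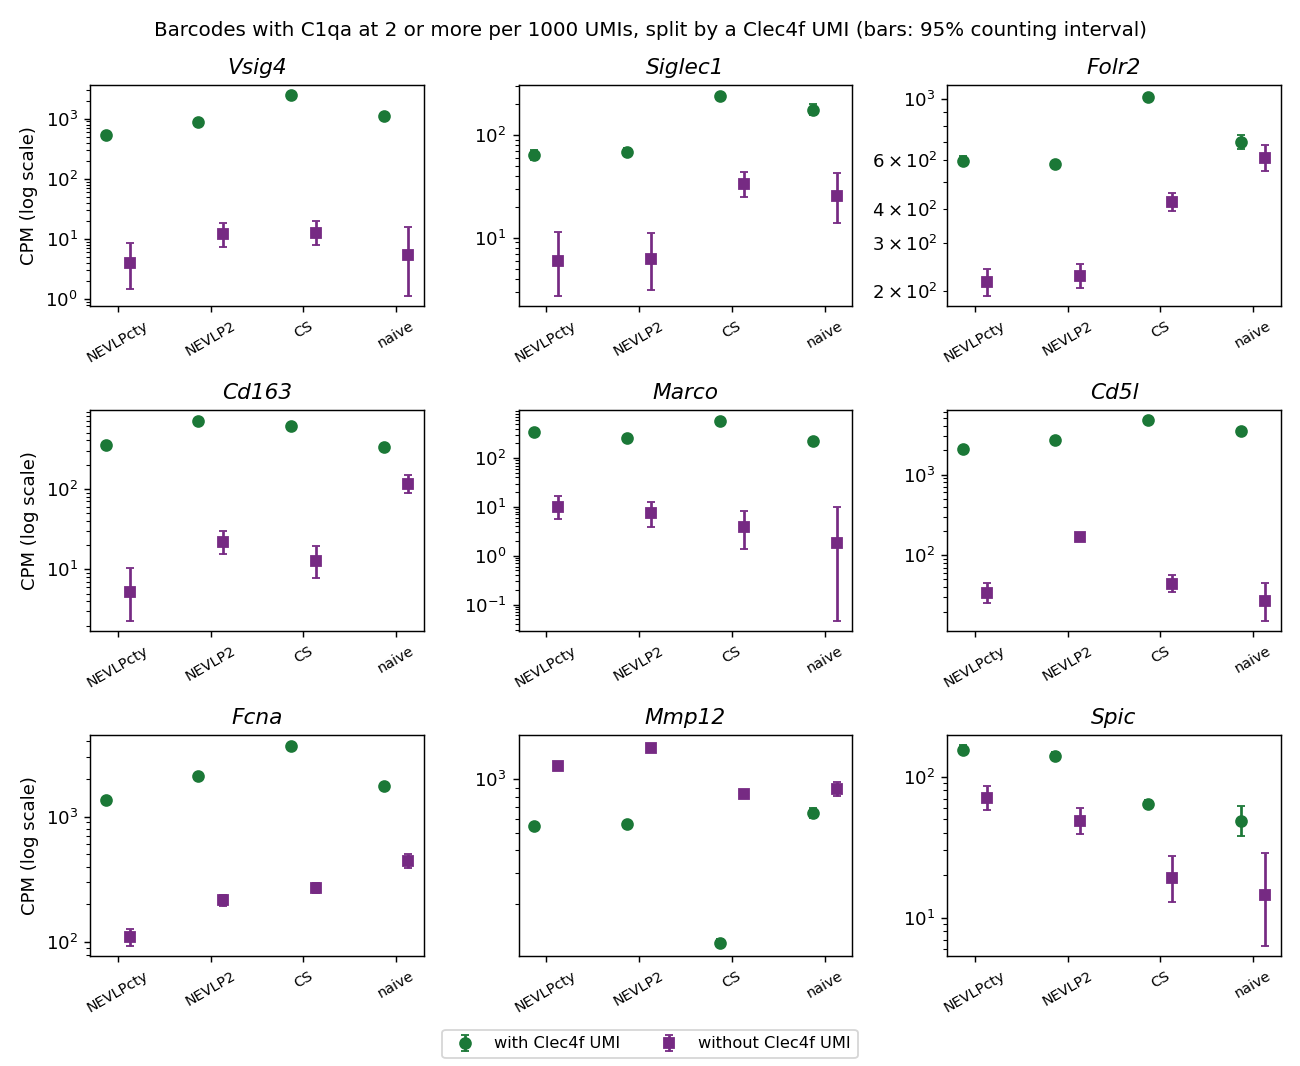
Level (CPM, log scale) of 9 members in C1qa-rich barcodes with a Clec4f UMI (green circles) and without one (purple squares) in NEVLPcty, NEVLP2, CS and naive, unthinned, with 95% counting intervals. Circles lie above squares for all genes but Mmp12, whose lowest value is that of CS barcodes with Clec4f, at 122 CPM.

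Differences between libraries remained within the C1qa-rich barcodes that held Clec4f. There, Vsig4 was 4.58-fold lower in NEVLPcty than in CS (4.40 to 4.77) and 2.79-fold lower in NEVLP2 (2.73 to 2.86). Siglec1 was 3.72-fold lower in NEVLPcty (3.3 to 4.2) and 3.45-fold lower in NEVLP2 (3.18 to 3.76). Cd5l and Fcna were 2.23-fold and 2.71-fold lower in NEVLPcty and 1.77-fold and 1.73-fold lower in NEVLP2, and Folr2 was 1.71-fold and 1.76-fold lower in NEVLPcty and NEVLP2. Cd163 was 1.71-fold lower in NEVLPcty (1.63 to 1.81) and 1.16-fold higher in NEVLP2 (1.13 to 1.20). Of the 9 members other than Clec4f, those at least 2-fold lower numbered 4 in NEVLPcty (Vsig4, Siglec1, Cd5l and Fcna), beside 26.8% of genes in the same barcodes, and 3 in NEVLP2, beside 35.4%, which were Vsig4, Siglec1 and Marco, the last resting on few barcodes. Mmp12 and Spic were the 2 at least 2-fold higher in each perfused liver, beside 8.39% in NEVLPcty and 9.27% in NEVLP2. In CS over naive, Vsig4, Fcna and Marco were the 3 higher, beside 8.24%, and Mmp12 the 1 lower, beside 8.22%.

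For Mmp12 the difference from CS was larger in the barcodes with Clec4f. It was 4.48-fold higher than in CS in NEVLPcty (4.22 to 4.75) and 4.62-fold higher in NEVLP2 (4.39 to 4.87) in those barcodes. In C1qa-rich barcodes without Clec4f it was 1.44-fold higher in NEVLPcty (1.34 to 1.55) and 1.80-fold higher in NEVLP2 (1.69 to 1.93). These Mmp12 ratios are unthinned, and their intervals cover counting error only. Thinned barcodes without Clec4f held 1174 CPM in NEVLPcty, 1833 in NEVLP2 and 764 in CS. Those with Clec4f held 466, 453 and 134 CPM. The gap between the sets was smaller after thinning, but thinning also moved barcodes from one set to the other. Spic was higher on both sides of the split, at 2.43-fold (2.21 to 2.67) in NEVLPcty and 2.20-fold (2.03 to 2.39) in NEVLP2 with Clec4f, and at 3.72-fold (2.46 to 5.77) and 2.56-fold (1.67 to 4.02) without it. Cd5l in barcodes without Clec4f was 3.75-fold higher in NEVLP2 than in CS (2.88 to 4.94) when unthinned, at 167 CPM in NEVLP2 and 44.5 CPM in CS, but thinned barcodes held 445 CPM in NEVLP2 and 205 CPM in CS. How far a library's own level of Clec4f moves barcodes across this split was not tested.

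Across C1qa-rich barcodes thinned to 2000 UMIs, Clec4f, Cd5l, Fcna and Vsig4 varied together. Spearman's rho of Clec4f with Cd5l was 0.78 over 421 barcodes in NEVLPcty, 0.72 over 678 in NEVLP2, 0.65 over 1147 in CS and 0.86 over 113 in naive. With Fcna it was 0.66, 0.73, 0.73 and 0.67, and with Vsig4 0.57, 0.70, 0.67 and 0.73. With Mmp12 it was negative in each library, at -0.36, -0.46, -0.46 and -0.36. Spic was nearly independent of Clec4f, at 0.10, 0.11, -0.03 and 0.07. The barcodes of a library share their preparation, so these values describe it and carry no p.

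Other genes of resident and scavenging macrophages were lower in the perfused livers too, with clear exceptions. Of 20 further Kupffer and scavenger genes, 17 were found. In NEVLPcty, 1 was at least 2-fold higher and 8 lower than in CS, beside 8.82% and 30.3% of all genes. Their median log2 ratio was -0.88 against -0.43 over all genes. In NEVLP2, 1 was higher and 11 lower, beside 8.7% and 37.8%, with a median of -1.75 against -0.63. Timd4, Slc16a9 and Cd36 were not among the features under those symbols. The ferroportin gene Slc40a1, which exports iron, was 2.19-fold lower in NEVLPcty than in CS (2.11 to 2.27) and 3.73-fold lower in NEVLP2 (3.60 to 3.87). Id3, a factor of Kupffer cell development in the mouse, was 2.36-fold lower in NEVLPcty (2.28 to 2.44) and 4.06-fold lower in NEVLP2 (3.93 to 4.2), but barcodes without a C1qa UMI held 466, 247, 1741 and 151 CPM of it in NEVLPcty, NEVLP2, CS and naive, so in CS they held more than macrophage barcodes did (1031 CPM).

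Hmox1, haem oxygenase, was the 1 gene of this list at least 2-fold higher than in CS in each perfused liver. It had 14790 CPM in NEVLPcty, 11337 in NEVLP2, 911 in CS and 592 in naive. That was 16.2-fold above CS in NEVLPcty (16 to 16.5) and 12.4-fold in NEVLP2 (12.3 to 12.6). Barcodes without a C1qa UMI showed the same split, at 12239 CPM in NEVLPcty, 5946 in NEVLP2, 81.1 in CS and 43.2 in naive, so the difference was not limited to macrophage barcodes. The lists of Kupffer genes and factors share Id1, Id3 and Nr1h3. Lyve1 and Mrc1, receptors that sinusoidal endothelium also makes, were higher in barcodes without C1qa than in macrophage barcodes in NEVLPcty and CS. At 3251 CPM in NEVLPcty and 2603 in CS without C1qa, Lyve1 in macrophage barcodes (1279 and 723 CPM) is not particular to macrophages, and the part of endothelial transcripts in the list's counts was not tested.

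Among 10 transcription factors of Kupffer cells, 1 of which is Spic, 1 was at least 2-fold higher and 5 were lower than in CS in each of NEVLPcty and NEVLP2, with medians of -1.03 and -0.95. Over all genes, 8.82% were higher and 30.3% lower in NEVLPcty, and 8.7% and 37.8% in NEVLP2, with medians of -0.43 and -0.63. Nr1h3, the liver X receptor alpha that maintains the resident state in the mouse, had 149 CPM in NEVLPcty, 106 in NEVLP2, 479 in CS and 301 in naive. It was 3.22-fold lower in NEVLPcty (3.04 to 3.40) and 4.52-fold lower in NEVLP2 (4.30 to 4.75) than in CS. Spi1, which encodes PU.1, was within 1.17-fold of CS in both perfused livers. Between the perfused livers, Nr1h3 was lower in NEVLP2 and Cd5l, a target of it in the mouse, lower in NEVLPcty. Without mixed barcodes the order turned for Cd5l, with a log2 ratio of NEVLPcty over NEVLP2 of 0.11. A link between the levels of these genes was not tested.

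Of 13 general macrophage genes tested, 1 was at least 2-fold higher and 4 were lower than in CS in NEVLPcty, where 8.82% and 30.3% of all genes were, and the same numbers in NEVLP2, where 8.7% and 37.8% were. Their median log2 ratios were -0.81 in NEVLPcty, against -0.43 over all genes, and -0.64 in NEVLP2, against -0.63. C1qb was 1.75-fold lower in NEVLPcty (1.74 to 1.77) and 1.67-fold lower in NEVLP2 (1.66 to 1.68), and Aif1 2.62-fold and 2.63-fold lower. Fcer1g and Tyrobp, signalling adaptors of myeloid cells, lay within 1.42-fold of CS. C1qa itself, which selected the barcodes, had 5273 CPM in NEVLPcty, 5827 in NEVLP2, 11824 in CS and 8050 in naive, so the selecting gene differed between the libraries in the same direction as the identity genes.

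Of 9 genes of lipid-associated macrophages, 3 were at least 2-fold higher and none lower in NEVLPcty than in CS. Over all genes, 8.82% were higher and 30.3% lower there. In NEVLP2, 3 were higher and 1 lower, beside 8.7% and 37.8% of all genes. Their median log2 ratios were 0.73 in NEVLPcty, against -0.43 over all genes, and 0.87 in NEVLP2, against -0.63. Gpnmb, a marker of such cells, had 352 CPM in NEVLPcty, 392 in NEVLP2, 203 in CS and 337 in naive, and Cd9 was 2.29-fold (2.15 to 2.44) and 2.07-fold (1.96 to 2.20) above CS in NEVLPcty and NEVLP2. Fabp5 was 25.6-fold (24.2 to 27.1) and 12.3-fold (11.6 to 13) higher, but barcodes without C1qa held more of it than macrophage barcodes did in NEVLPcty, NEVLP2 and CS, at 2632, 1329 and 175 CPM. Ctsl was 2.27-fold above CS in NEVLPcty (2.24 to 2.30) and 1.08-fold in NEVLP2 (1.07 to 1.10). In NEVLPcty, barcodes without C1qa held 11363 CPM of Ctsl, against 4723 CPM in macrophage barcodes.

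Other matrix genes gave mixed values. Of 10 metalloproteinases and inhibitors, 8 had at least 10 counts in NEVLPcty and CS together. Of these, 4 were at least 2-fold higher and 2 lower, beside 8.82% and 30.3% of all genes. In NEVLP2 and CS, 9 had, with 5 higher and 3 lower, beside 8.7% and 37.8%. Mmp14, a membrane-bound collagenase, had 160 CPM in NEVLPcty, 171 in NEVLP2, 41.2 in CS and 52.4 in naive, which is 3.89-fold (3.59 to 4.21) and 4.15-fold (3.86 to 4.47) above CS in NEVLPcty and NEVLP2. Timp1, an inhibitor of these enzymes, was 7.80-fold (7.22 to 8.43) and 3.88-fold (3.59 to 4.2) higher, but barcodes without a C1qa UMI held more of it than macrophage barcodes, at 826 CPM against 281 in NEVLPcty, 412 against 140 in NEVLP2 and 129 against 36 in CS. Timp2 stood at 421 CPM in NEVLPcty, 420 in NEVLP2, 839 in CS and 542 in naive.

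The genes whose levels over the 4 libraries ran most like a member's were found by the distance between log2(CPM + 1) values, each centred on its mean, among 11251 genes. For Vsig4, Ifi27l2b lay at a distance of 0.18, with 416 CPM in NEVLPcty, 719 in NEVLP2, 2749 in CS and 953 in naive. For Mmp12, the nearest was Cd72, at 0.31, with 121 CPM in NEVLPcty, 139 in NEVLP2, 25.8 in CS and 98.9 in naive. For Cd163 it was Ttpa, at 0.06, for Spic the second nearest was Txnl1, at 0.10, and for Cd5l the nearest was Ino80c, at 0.07. With 4 points a likeness of this kind is a description only.

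Markers of other cells also differed between the libraries. Over macrophage barcodes, hepatocyte markers took 0.104% of UMIs in NEVLPcty, 0.291% in NEVLP2, 0.208% in CS and 0.120% in naive. All 6 of them were detected in each library. Endothelial markers took 0.169, 0.043, 0.127 and 0.0135%, with Stab2, Clec4g and Ptprb at 0 in naive. Of 9 listed monocyte markers, 7 were found and took 0.00331, 0.0198, 0.0182 and 0.0541%, with F13a1 at 0 in NEVLPcty. The sums hide unlike members, since Vcan stood at 0.207 CPM in NEVLPcty, 58.7 in NEVLP2, 2.02 in CS and 0.738 in naive, and Fn1 at 5.68, 87.3, 134 and 458 CPM. Neutrophil markers took 0.000992, 0.00683, 0.00149 and 0.00148%, and all 5 were at least 2-fold higher in NEVLP2 than in CS, beside 8.7% of genes, although Retnlg had 2 counts in CS. Of the erythroid markers, 3 of 4 were found and took 0.00408, 0.00128, 0.0827 and 0.00509%, with Alas2 at 0 in both perfused livers. Their part in the members' differences was not tested; in C1qa-rich barcodes with Clec4f, where the values above for Vsig4, Siglec1, Mmp12 and Spic were still past 2-fold in both perfused livers, Clec4f itself was selected for.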

How the data were processed

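Single-cell libraries of Lewis rat liver (4, with 1 per condition) were read from the deposited filtered matrices, whose values are UMI counts per gene and barcode. Cell Ranger appears as version 2.1.1 in the submitters' processing notes and as 6.0.0 per the file headers, and no source used here names the genome build. Features with the same symbol were summed. A barcode was kept from 200 genes and 500 UMIs upward if mitochondrial transcripts made up no more than 20%, and counted as a macrophage barcode from 2 UMIs of C1qa. Hepatocyte barcodes had at least 5% of UMIs in 6 hepatocyte markers, and lymphocyte barcodes at least 2 UMIs over Cd3d, Cd3e, Cd3g and Cd79b, both with under 2 of C1qa. Summed counts were divided by their total (CPM), with exact Poisson intervals for levels, conditional binomial for ratios and Clopper-Pearson for shares; 95% limits cover counting error only. No p-value was computed, since no condition has a replicate. A gene at 0 counts was set to a floor of 3 counts. Genes with at least 10 counts over both libraries of a comparison formed the background. Scrublet in scanpy 1.11.5 called 199 doublets in NEVLPcty, 205 in NEVLP2, 339 in CS and 6 in naive, of which 20, 35, 132 and 0 were macrophage barcodes; they were kept, and removed in an alternative. The naive call is low, so doublets may remain there. From each fixed list, the 5 genes with most counts could be named. Tables were handled with pandas 2.3.3, numpy 2.4.6 and scipy 1.17.1 in Python 3.11.15, and plots drawn with matplotlib 3.10.9. The ratio interval was tested on simulated data. The members and lists were chosen with earlier results of these data known.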

Additional observations from a re-analysis of the deposited data

Results flagged for a closer look

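Some members were also found outside the macrophage barcodes. In NEVLP2 barcodes without any C1qa UMI, Spic stood at 15.7 CPM (14.4 to 17.0), against 2.82 CPM in NEVLPcty (2.38 to 3.31), 0.994 CPM in CS and 1.35 CPM in naive. Of the NEVLP2 UMIs, 485 lay in 65 barcodes with at least 2 of Spic each, at a median depth of 13814 UMIs. The barcodes held Lyz2 in 96.9%, Gpnmb in 93.8%, Cd14 in 84.6% and Vcan in 69.2%, which are genes of myeloid cells, and Cd207 in none.

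Mmp12 in barcodes without C1qa stood at 15.6 CPM in NEVLPcty (14.5 to 16.7) and 65.4 CPM in NEVLP2 (62.8 to 68.1), against 5.32 CPM in CS and 7.22 CPM in naive. In NEVLP2, 2171 of its UMIs lay in 78 barcodes, all of which held Cd74 and RT1-Da of the MHC class II pathway, with Ccl17 in 75.6%, Ccl22 in 74.4% and Cd207 in 34.6%. Ccl17, Ccl22 and Cd207 are known from dendritic cells, and Vcan was found in 5.13% of these barcodes, so the Spic and Mmp12 barcodes differed in these genes. Other genes were found in most barcodes of both kinds. Lyz2 was found in 96.2% of the Mmp12 barcodes, and Cd74 and RT1-Da in 95.4% and 89.2% of the Spic barcodes. Cd74 differed in level, at 58401 CPM in the Mmp12 barcodes and 9178 CPM in the Spic barcodes. All genes named here were chosen after the values had been seen.

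For Marco, NEVLPcty over CS was 1.99-fold (1.66 to 2.41) in barcodes without a C1qa UMI, against 2.19-fold lower from the summed counts of macrophage barcodes. Since the sign in macrophage barcodes turned under other settings, with log2 ratios of 3.25 without mixed barcodes, 1.11 as a mean over barcodes and 1.02 after thinning, no difference in direction can be stated, and none was tested.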

How the results depend on the processing

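Alternatives to the choice of barcodes, the scaling and the weight of each barcode were tried (12 planned for a ratio, and others chosen after seeing the data). Siglec1, Vsig4 and Mmp12 kept their direction and stayed past 2-fold over CS in all 12 planned ones, in NEVLPcty and in NEVLP2. Apart from Marco and from Cd163 in NEVLP2, no member changed direction over CS in any of 253 values. The count of members at least 2-fold lower in NEVLPcty than in CS, 8 of 10, was 2 without barcodes that also held markers of other cells (which leaves 311, 653, 426 and 115 barcodes in NEVLPcty, NEVLP2, CS and naive), 4 in C1qa-rich barcodes with Clec4f, and 5 as a mean over barcodes or divided by the median ratio. The 5 lower in NEVLP2 became 3 without mixed barcodes, 3 in C1qa-rich barcodes with Clec4f, 3 as a mean over barcodes and 2 divided by the median ratio. The 2 higher became 1 with C1qa in at least 1 UMI and without the 10 highest barcodes, in both perfused livers, and 1 in NEVLPcty with a mitochondrial limit of 10%. Genes at least 2-fold higher in NEVLPcty (1123) numbered 2631 with at least 1 count and 584 without mixed barcodes, and in NEVLP2 (1121) 2171 with at least 1 count. Marco is among both the 8 and the 5 lower members. The cause of these changes was not tested.

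Marco reversed. Its log2 ratio of NEVLPcty over CS was 3.25 without mixed barcodes, 1.11 as a mean over barcodes and 1.02 after thinning, and that of NEVLP2 over CS was 1.10 without mixed barcodes. For CS over naive it was -3.60, -1.10 and -0.77 under the same settings, and without the 10 highest barcodes naive has no Marco left and gives no ratio. No paired analysis was possible because each condition has 1 library. Depth limits naive most, with 201 macrophage barcodes.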
